A study of Mus musculus with 30 samples.

Results

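The Lx elements are the rodent-specific, older branch of the LINE-1 (L1) retrotransposons, and their reads were compared here in neuron-enriched cultures of mouse sensory ganglia with and without a block of the AP-1 transcription factor. The members were every interval of the deposited repeat table whose annotation gave the class LINE and a name that starts with Lx. They came to 3420 intervals with 21 names, out of 17137 LINE intervals with 142 names and 205758 intervals in the whole table. Most were very short: 3364 of the 3420 covered 24 bases, and the longest covered 65.

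The libraries came from primary dorsal root ganglion (DRG) cultures, enriched for neurons, of C57/Bl6 wild-type mice. An adeno-associated virus with the PHP.S capsid, used to reach neurons of the ganglia, carried A-Fos into 10 cultures (DN) and GFP into 10 others, and 10 untransduced cultures received no virus. A-Fos is a dominant negative Fos that pairs with Jun proteins and keeps the AP-1 factor off DNA. By the titles, each condition had 3 plain cultures (replicates 1 to 3), 3 cultures kept 7 days in vitro, called 7DIV (replicates 4 to 6), and 4 cultures titled with a date (replicates 7 to 10). Cells of a mouse were shared out over the 3 conditions, which therefore have strain, tissue and preparation in common by the series design. Libraries with the same number were taken as a trio, although the labels do not tie a number to a mouse. The sources used here do not give the age of the mice or the days in culture of the plain and dated sets.

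An intact L1 is copied through an RNA intermediate by 2 proteins that it encodes, and most copies in the genome are truncated remnants that no longer move. Lx copies have had a long time to decay, so RNA that contains them is mostly carried by other transcripts, for example as part of an intron or an untranslated region, and only in some cases starts at the element itself. Short reads from such copies are hard to place, because copies of a subfamily resemble each other and because other genes can hold the same bases.

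Sequences of the intervals that carried the most reads are shown first, because they decide what the Lx count measured. Both lay in Gm4332, a processed pseudogene on the plus strand of chromosome 3 (GRCm38 119709516 to 119709861). They are given for the plus strand as GENCODE M21 transcripts hold them, and capitals mark bases that also occur, unbroken, in a transcript of Rps20, the gene of a protein of the small ribosomal subunit.
Lx5, chr3:119709764-119709787: GACTCATTGATTTACATAGTCCTT
Lx5, chr3:119709597-119709620: GCTGGAGAAGGTTTGTGCGGACTT
All 24 bases of each were found in Rps20. The first also occurred in Gm38247 and the second in Gm4997. Reads from these genes and from the pseudogene may therefore have been split between them by the alignment, and the values of both intervals are uncertain as a measure of Lx RNA.

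The next lines show 4 other exonic Lx intervals, chosen because they hold the motif ATGTAAA (capitals), which was picked after the sequences were seen.
Lx, chr1:44560937-44560960: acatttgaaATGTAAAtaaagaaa
Lx, chr19:36591112-36591135: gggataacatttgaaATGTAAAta
Lx4A, chr6:31429686-31429709: ggtagtgagtgggATGTAAAgtga
Lx2B, chr8:72766663-72766686: aATGTAAAtgattaatttgaataa
The 4 lie in transcripts annotated in or over Gulp1, Hectd2, Mkln1 and Gm45705, and they held 108, 33, 37 and 25 reads. The bases of the first occurred in transcripts of 99 other genes and those of the second in 90, whereas the last 2 occurred in no transcript of another gene. Only GENCODE M21 transcripts were searched, so copies in introns removed by splicing or between genes would not be seen. Of 131 exonic Lx intervals, 121 could be read from transcripts, and 15 of these had an exact match in a transcript of another gene. Those 15 held 25771 reads, nearly all of them in the pseudogene. On both strands, the AP-1 site TGANTCA was in 0 of 117 exonic Lx windows of 24 bases and in 0.59% of 339 windows from other LINEs, and the cyclic-AMP site TGACGTCA was in none of either. ATGTAAA was in 18 of the 117 (15.4%) against 10.3% of the other LINE windows, and AATAAA, which can share bases with the end of ATGTAAA, was in 22.2% against 28.6%. These shares are descriptions of letters in short windows. Because ATGTAAA was picked after sequences were seen, its shares do not compare Lx with other LINEs fairly. Windows of related copies, such as the first 2 lines, which share a stretch, are not independent.

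Reads on Lx intervals were few and concentrated. The 30 libraries held 70289 Lx reads, which was 34.83% of all LINE reads from 19.96% of the LINE intervals. The 2 Gm4332 intervals, whose bases also occur in Rps20, held 25603 of these reads, and 44686 were left without them. The share of LINE reads therefore rests in large part on that pair. Of the 3420 intervals, 1235 (36.1%) had a read in any library, their median was 11 reads over all libraries, and 567 had fewer than 10. An interval without a read is limited to 3 reads over all libraries, and this limit covers counting error only. The most-read interval held 20.05% of the Lx reads, the first 2 held 36.4%, the first 10 held 52.0% and the first 100 held 72.7%. Without untransduced replicate 4, a library that stood apart, the shares were 21.4%, 38.8%, 55.3% and 75.2%. In that library alone they were 1.61%, 3.21%, 13.5% and 60.3%, so its Lx reads were shared more evenly between intervals. They did not lie on more intervals: 342 had a read there, against 156 to 481 in each of the other libraries.

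**Figure D1:**
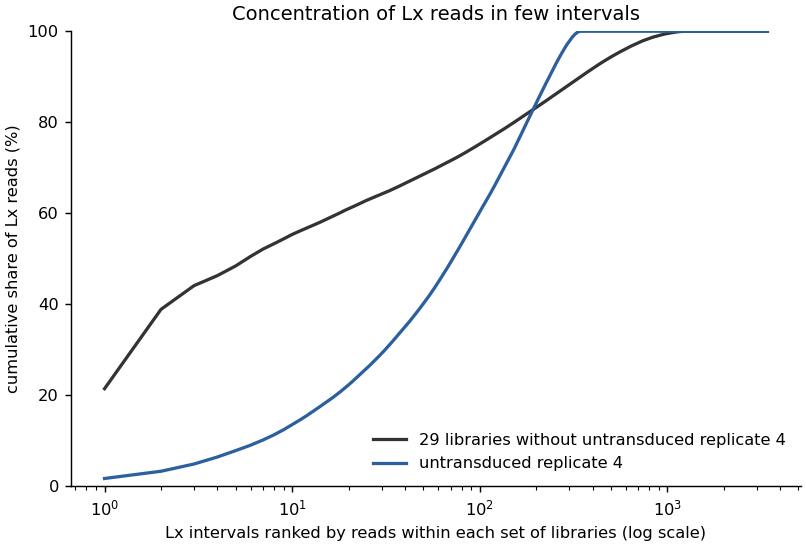
Cumulative share of Lx reads (y axis, percent) against the rank of the interval (x axis, log scale), ranked separately in 29 libraries and in untransduced replicate 4. The first 10 intervals held 55.3% of the reads of the 29 libraries and 13.5% of those of untransduced replicate 4.

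The names were as unequal as the intervals. Lx5 held 38.4% of Lx reads, Lx2 11.7%, Lx 8.05%, Lx9 7.52% and Lx8 7.46%, while the 3 rarest names (Lx2A1, Lx2A and Lx4B) held between 0.125% and 0.206%. Within a name, the single most-read interval held from 5.55% of the reads (Lx8) to 53.4% (Lx4B). For Lx5 that share was 52.2%, and with the second Gm4332 interval most of the name was pseudogene sequence. Lx8 and Lx8b were spread most evenly: 192 of 430 Lx8 intervals had a read and 91 of 188 Lx8b intervals did.

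Counts differed with where the intervals lay. Exons covered 131 intervals, which held 43.6% of the reads, but 83.5% of these exonic reads were in the Gm4332 pair. Introns covered 1620 intervals with 31.99% of the reads, and 1669 intervals between genes held 24.4%. With the pair left out, exons held 11.3% of the Lx reads, introns 50.3% and intervals between genes 38.4%. A read in any library was found for 58.0% of exonic, 49.1% of intronic and 21.8% of intergenic intervals. After the Gm4332 pair, the 8 next most-read intervals were 7 between genes and 1 in an exon. An Lx2 interval at chr19:40119806-40119834, 5856 bases from Cyp2c50, held 3445 reads. An Lx interval at chr9:38747282-38747305, 3945 bases from Vwa5a, held 1467. A group of 3 Lx2 intervals within 1 stretch of chromosome X, 1626 to 2339 bases from Car5b, held 1404, 1368 and 710 reads, so they are not independent of each other. The exonic interval was an Lx9 copy of 33 bases at chr14:50877174-50877206 in Gm26782, an antisense RNA gene, with 1087 reads.

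Detection differed sharply with the strand of the gene around the interval. Of 869 Lx intervals in genes on the plus strand, 678 had a read (78.0%), and these intervals held 50040 reads. Of 816 in genes on the minus strand, 149 had one (18.3%), with 1548 reads. Of reads in genes of 1 strand, the plus strand held 97.0% over all libraries and between 95% and 98.9% in each, so all 30 libraries showed it. These shares include the Gm4332 pair, which held 25603 of the plus-strand reads. Intronic intervals, which leave that pair out, held 19778 reads in plus-strand genes and 1515 in minus-strand genes. The repeat table has no strand column. The pattern was not particular to Lx in this table: a read was found in 69.6% against 15.4% of other LINE intervals, in 73.4% against 30.1% of LTR intervals, in 83.8% against 35.4% of SINE intervals and in 94.1% against 39.1% of intervals that are no repeat. In the gene table, genes on the plus strand held 54.1% of the reads. Levels of Lx elements in minus-strand genes were thus hardly sampled, and how much of the asymmetry came from the counting was not tested.

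**Figure D2:**
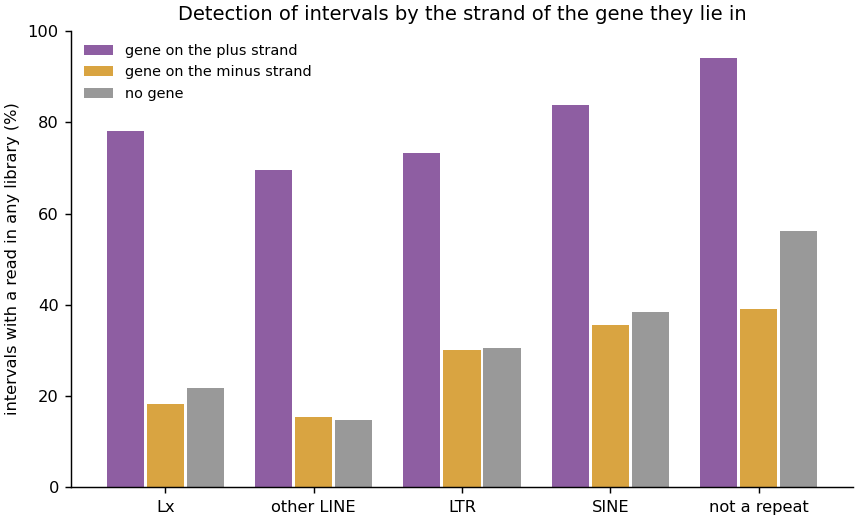
Percent of intervals with a read in any library (y axis) by kind of interval (x axis) and by the strand of the annotated gene around them; intervals in genes of both strands are not drawn. For Lx the bars stand at 78.0% in plus-strand genes, 18.3% in minus-strand genes and 21.8% outside genes.

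Expression of the host gene went with detection on the plus strand. In introns of plus-strand genes that passed the expression filter, 591 of 680 Lx intervals had a read (86.9%), at 27.8 reads per interval. In plus-strand genes below the filter, 37 of 130 had one (28.5%), at 6.50 reads per interval. On the minus strand the shares were 16.8% of 636 intervals in expressed genes and 24% of 125 in the others. Between genes, 30.5% of 692 intervals closer than 10 kb to a gene had a read, against 15.6% of 977 farther away. The host genes with the most intronic Lx reads were Fbxo7, a ubiquitin ligase subunit, with 763 reads in 3 intervals, and Edil3, a secreted integrin ligand, with 737 in 7.

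Levels are given per M, that is per 1000000 reads of the gene table. That table held 24.1 to 39.1 M reads for each of 29 libraries and 10.7 M for untransduced replicate 4. The 29 libraries held between 1597 and 3316 Lx reads each. All 12 sensory neuron markers that had been listed were detected in every library, with sums of 2525 to 5304 reads per M, and markers of satellite glia and Schwann cells (1711 to 3133) and of fibroblasts (3264 to 6243) were present beside them. Endothelial (5.54 to 33.1) and macrophage markers (10.4 to 22.3) were the lowest. These ranges leave out untransduced replicate 4, which had 3436 for neurons, 1124 for glia and 2761 for fibroblasts.

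The central comparison asked whether blocking AP-1 changed Lx RNA. The sum of all Lx reads did not separate the conditions. In DN libraries it ran from 60.7 to 91.7 reads per M, with a median of 72.8. In GFP libraries it ran from 62.1 to 100.9, with a median of 74.0. In untransduced libraries it ran from 60.7 to 436, with a median of 76.9, and without replicate 4 the highest was 90.7 and the median 76.0. The 3 ranges overlapped almost fully, apart from that 1 library. Within trios, DN minus GFP averaged -0.04 on the log2 scale with an SD of 0.24 over 10 pairs, and DN was higher in 4 of 10. DN minus untransduced averaged -0.22 with an SD of 0.82, and 0.03 with an SD of 0.26 over the 9 pairs without replicate 4. GFP minus untransduced averaged -0.18 with an SD of 0.72, and 0.04 with an SD of 0.13 over the same 9 pairs. No p is given for this sum, because its members were chosen. Sensory neuron markers did differ between these libraries: 8 of 12 rose and 1 fell in DN against GFP, beside 10.9% of all genes called. Of satellite glia and Schwann cell markers 0 rose and 2 of 10 fell, and of macrophage markers 0 rose and 1 of 5 fell. For fibroblasts 0 of 6 and for endothelial cells 0 of 4 tested markers were called. The part of these markers in the Lx values was not tested. In such bulk samples fewer cells of a type and less RNA per cell cannot be told apart.

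The conditions overlapped in each location. Intronic Lx reads ran from 13.2 to 37.9 per M in DN (median 19.1), 12.3 to 43.7 in GFP (median 22.02) and 9.46 to 41.5 in untransduced libraries other than replicate 4 (median 18.8). Exonic Lx reads ran from 29.9 to 41.1 in DN (median 34.4), 26.1 to 39.4 in GFP (median 33.8) and 27.9 to 40.7 in those untransduced libraries (median 36.1). Reads between genes had medians of 19.6, 19.2 and 16.8. Trio differences between DN and GFP averaged -0.20 (SD 0.59) in introns, 0.03 (SD 0.18) in exons and 0.07 (SD 0.22) between genes. The average hides unequal sets: in introns it was 0.21 in the plain set, -0.82 in 7DIV and -0.04 in the dated set, and for all Lx intervals 0.19, -0.28 and -0.02. DN was below GFP in 3 of 3 trios of 7DIV, in 1 of 3 plain trios and in 2 of 4 dated ones, for both quantities. With the Gm4332 pair left out, the Lx sum ran from 30.6 to 67.3 in DN (median 41.4), 30.7 to 76.6 in GFP (median 46.0) and 27.4 to 69.2 in untransduced libraries other than replicate 4 (median 40.4), and the groups overlapped there too.

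**Figure D3:**
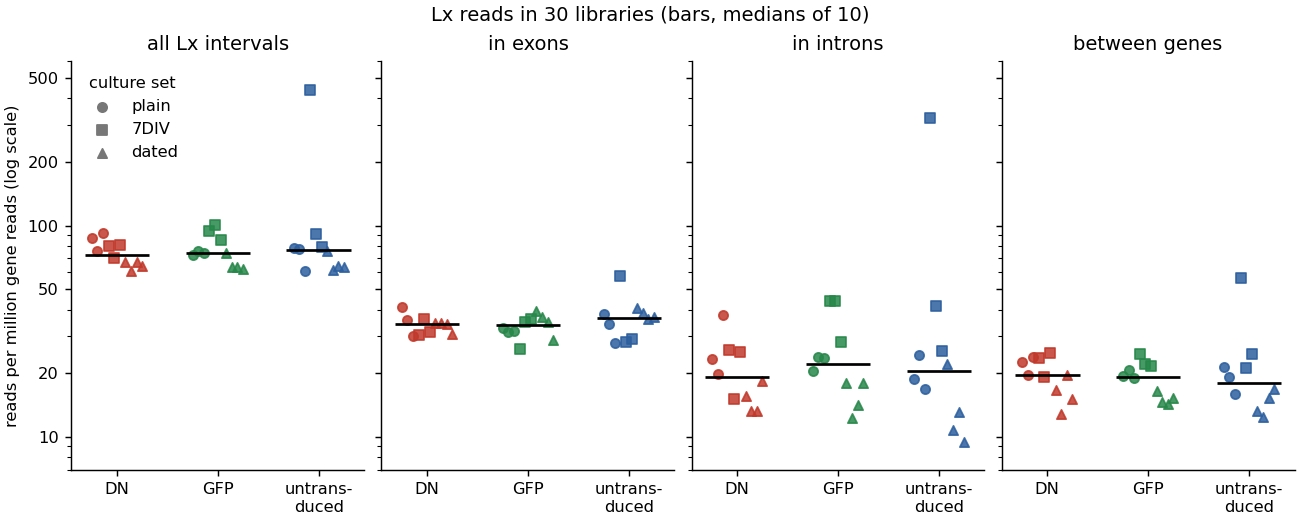
Lx reads per M gene reads (y axis, log scale) in each of the 30 libraries by condition (x axis), for all intervals and by location; marker shape gives the culture set and bars give the median of 10 libraries. The single high untransduced point, at 436 for all intervals and 322 in introns, is replicate 4.

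The culture sets differed more visibly than the conditions. Without untransduced replicate 4, all Lx intervals together held 60.7 to 91.7 reads per M in the plain set (median 76.0, 9 libraries). They held 70.3 to 100.9 in the 7DIV set (median 83.5, 8 libraries) and 60.7 to 76.0 in the dated set (median 64.1, 12 libraries). Intronic intervals carried most of that order, with medians of 23.3, 26.9 and 13.7, and intervals between genes followed it, with 19.6, 22.9 and 15.2. Exonic intervals had medians of 32.6, 30.8 and 35.6, which is the order of the Gm4332 pair (27.8, 24.8 and 31.1). With that pair left out, a step added after seeing the data, exonic medians were 4.96, 6.17 and 4.43, in the order of the other locations. Young L1 intervals (names starting with L1Md) had medians of 23.8, 31.9 and 16.9 in the same order. The sets share neither cultures nor, as far as the titles say, preparation, so set and time in culture cannot be told apart.

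Counts were then summed per name and tested with edgeR across all LINE names (quasi-likelihood test, replicate number as block, Benjamini-Hochberg adjustment, threshold 0.05). Of the 21 Lx names, 18 passed the filter on low counts, among 80 LINE names tested. In DN against GFP, 0 of the 18 passed the threshold, where 1.25% of all LINE names did. In DN against untransduced the count was 0 beside 2.5%, and in GFP against untransduced 0 beside 0%. In each comparison 0 of the 18 had an unadjusted p under 0.05. DESeq2 called 0 as well, beside 1.25%, 2.5% and 0% of all LINE names, also with 0 at an unadjusted p under 0.05. Leaving out untransduced replicate 4 gave 0 in all 3 comparisons, beside 2.5%, 2.5% and 0%. The estimates were imprecise: the median SE of a name's log2 fold change was 0.32 for DN against GFP with all libraries and 0.21 without that replicate, so modest differences were not detectable.

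Lx5, the name dominated by the Gm4332 pair, was the steadiest. It ran from 25.6 to 37.4 reads per M in DN (median 30.6) and from 20.6 to 35.2 in GFP (median 30.1). In untransduced libraries it ran from 21.8 to 37.0 (median 31.8), and replicate 4 was the lowest of that group. The conditions overlapped, and DN was higher than GFP in 4 of 10 trios. The log2 difference between DN and GFP was 0.03, with a 95% interval from -0.23 to 0.30 and an edgeR adjusted p of 0.993.

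The other named subfamilies were lower and less even. Lx2 ran from 5.45 to 11.3 reads per M in DN (median 10.3), 5.85 to 11.5 in GFP (median 9.20) and 5.49 to 12.9 in untransduced libraries other than replicate 4 (median 7.98), which had 25.5. Its DN minus GFP difference was 0.09 (95% interval -0.29 to 0.47). The name Lx itself ran from 3.35 to 8.88 in DN (median 5.18), 4.35 to 9.09 in GFP (median 5.53) and 3.95 to 8.21 in untransduced libraries (median 5.36), beside 45.2 in replicate 4. Its difference was -0.02 (-0.53 to 0.50), so both subfamilies overlapped in the 3 conditions once replicate 4 is set aside.

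Lx9 had medians of 4.86 in DN, 4.74 in GFP and 5.02 in the 9 other untransduced libraries, with a highest value of 9.93 among these 29 libraries and 59.6 in replicate 4. Lx8 had medians of 4.57, 5.00 and 5.03, with a highest value of 11.8, and 62.3 in replicate 4. Lx7 had medians of 2.66, 2.78 and 2.47, with a highest value of 8.18, and 40.6 in replicate 4. Their DN minus GFP differences were -0.05 (-0.61 to 0.51), -0.05 (-0.62 to 0.53) and -0.22 (-0.77 to 0.33). In all 3 the conditions overlapped and the interval took in 0. The estimates farthest from 0 were 0.67 (-0.11 to 1.45) for Lx2B and -0.53 (-1.20 to 0.13) for Lx3B, and neither passed.

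**Figure D4:**
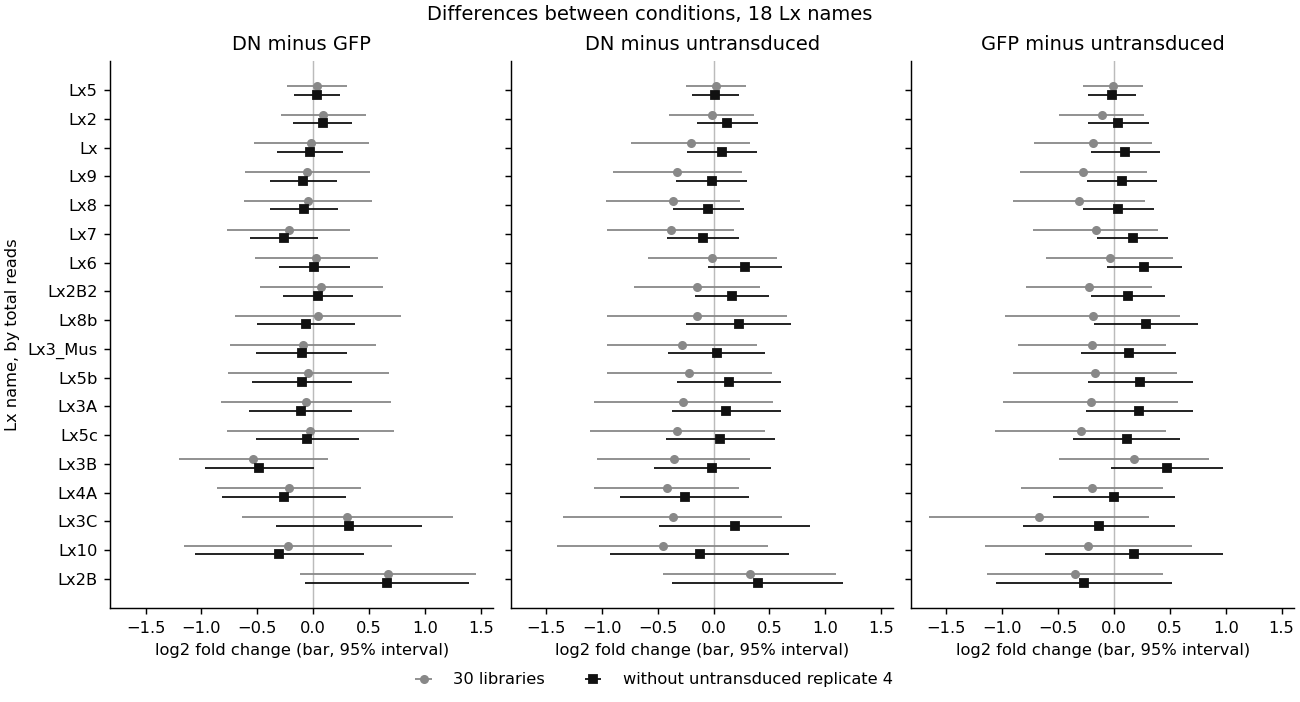
Log2 fold changes (x axis) of the 18 tested Lx names (y axis, most reads on top) in the 3 comparisons, with 95% intervals from edgeR, for all 30 libraries (grey circles) and without untransduced replicate 4 (black squares). In DN minus untransduced, 16 of 18 estimates lie below 0 with all libraries and 6 of 18 without that replicate.

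One library set the sign of the comparisons with untransduced cultures. With all libraries, 16 of 18 Lx names lay below 0 in DN against untransduced, with a median of -0.28 on the log2 scale, and 17 of 18 in GFP against untransduced, with a median of -0.20. Without untransduced replicate 4, 6 of 18 and 3 of 18 lay below 0, and the medians were 0.07 and 0.12. The medians over all 80 LINE names moved likewise, from -0.28 to 0.03 and from -0.15 to 0.14. The comparison of DN with GFP hardly moved, with a median of -0.03 with all libraries and -0.07 without that replicate, beside -0.07 and -0.10 over all LINE names. The first 2 comparisons share the untransduced libraries.

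A difference in the DN effect between the sets was tested as an interaction in edgeR. It was called for 0 of 18 names, beside 0% of all LINE names, with 0 at an unadjusted p under 0.05. Without untransduced replicate 4, 3 names (Lx8b, Lx9 and Lx3_Mus) had an unadjusted p under 0.05, and the lowest adjusted p was 0.231. For Lx9 the log2 difference between DN and GFP without that replicate was 0.14 (SE 0.25) in the plain set, -0.69 (SE 0.25) in 7DIV and 0.20 (SE 0.22) in the dated set. The 7DIV value had an edgeR adjusted p of 0.0926 within that set, so it did not pass.

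Single intervals were mostly too thin to test. Of the 3420, 24 passed the filter, among 12991 intervals tested over the repeat table. In DN against GFP, 0 of the 24 were called, beside 2.01% of all intervals. In DN against untransduced the count was 0 beside 2.46%, and in GFP against untransduced 0 beside 0%. Again 0 were called when untransduced replicate 4 was left out, beside 3.5%, 2.77% and 0%. At an unadjusted p under 0.05 edgeR had 4, 1 and 2 of the 24, and DESeq2 had 4, 3 and 2. DESeq2 also called 0 of the 24 in each comparison, beside 3.06%, 4.28% and 0% of all intervals. In edgeR the median log2 difference of the 24 between DN and GFP was 0.04, beside -0.01 over all intervals tested.

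The Gm4332 pair gave the most precise of these estimates. The interval at chr3:119709764-119709787 ran from 12.1 to 20.2 reads per M in DN, 9.24 to 20.3 in GFP and 6.09 to 20.5 in untransduced libraries, with medians of 15.6, 15.2 and 16.2. Its log2 difference between DN and GFP was 0.07 (95% interval -0.14 to 0.28), and for its partner it was 0.03 (-0.19 to 0.25). All conditions overlapped. In the gene table Gm4332 had medians of 49.7, 47.6 and 48.8 reads per M in DN, GFP and the untransduced libraries other than replicate 4, and Rps20 had 57.2, 54.1 and 58.2. The reads on both intervals came to between 53.8% and 70.5% of those counted for Gm4332 in the same library.

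The 8 next most-read intervals were each far lower. The Lx2 interval near Cyp2c50 ran from 1.81 to 6.98 reads per M in DN (median 4.32), 1.82 to 7.06 in GFP (median 3.26) and 0.761 to 7.98 in untransduced libraries (median 3.33). Its log2 difference between DN and GFP was 0.38 (95% interval -0.03 to 0.79), and the conditions overlapped. The Lx interval near Vwa5a had medians of 1.48, 1.59 and 1.52, with a difference of 0.05 (-0.41 to 0.51). For the group near Car5b the differences were 0.14 (-0.28 to 0.56), 0.05 (-0.43 to 0.54) and, for the interval of fewest reads, -0.51 (-1.09 to 0.08). The Lx9 copy in Gm26782 had medians of 1.15, 1.11 and 1.35, with a difference of -0.06 (-0.48 to 0.37). An Lx6 interval at chr11:104672059-104672082, 1583 bases from Itgb3, had medians of 0.723, 0.825 and 0.633, with a difference of 0.03 (-0.53 to 0.58). In these 7 the ranges overlapped and each 95% interval took in 0. The remaining one of the 8, an Lx interval at chr17:66256764-66256787 with 799 reads in all, ran from 0.711 to 2.07 reads per M in DN (median 1.17) and 0.418 to 0.947 in GFP (median 0.722), so the groups overlapped. Its log2 difference was 0.66, with a 95% interval from 0.14 to 1.18 that left out 0 and an edgeR adjusted p of 0.280, which did not pass.

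The interval with the lowest p in DN against GFP, chosen after its values were seen, was an Lx8 copy at chr16:37799899-37799922 in an intron of Fstl1, which encodes a secreted follistatin-like glycoprotein. It ran from 0.312 to 0.741 reads per M in DN (median 0.407) and from 0.0702 to 0.378 in GFP (median 0.191). DN was higher in 9 of 10 trios, and the ranges overlapped. Its log2 difference was 1.19 (SE 0.43), with an unadjusted p of 0.00801 and an edgeR adjusted p of 0.198, so it did not pass. The host gene did: Fstl1 ran from 966 to 1624 reads per M in DN and from 504 to 783 in GFP, with no overlap. Its log2 difference was 0.84 (SE 0.09), with an edgeR adjusted p of 2.41e-07 among 18063 genes, of which 10.9% were called. The part of host transcription in the value of the interval was not tested.

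The unadjusted p was under 0.05 for 3 further intervals, in both directions. They were the chromosome 17 interval above and 2 that were named after their values were seen. An Lx2B2 interval at chrY:1047312-1047335 had a log2 difference of 0.86 (SE 0.39, edgeR adjusted p = 0.4155). An Lx7 interval at chr9:38751308-38751331, 968 bases from the olfactory receptor gene Olfr920, had one of -0.99 (SE 0.39, edgeR adjusted p = 0.289). All 3 lie between genes.

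Untransduced replicate 4 held 436 Lx reads per M, 4.32 times the next highest library. It was the highest of 30 libraries for 19 of 21 names, the exceptions being Lx5, where it was 29th from the top, and Lx2B. Introns held 73.8% of its Lx reads, against 14.9% to 46.2% elsewhere. Its intronic Lx level was 322 reads per M against 9.46 to 43.7, its level between genes 56.1 against 12.4 to 24.9, and its exonic level 57.9 against 26.1 to 41.1. Without the Gm4332 pair its exonic level was 46.96 against 3.63 to 8.12. The Gm4332 pair went the other way, at 10.97 reads per M against 18.01 to 35.5. Among single intervals, an Lx5b copy in Krit1, which encodes a scaffold protein of endothelial junctions, had 7.03 reads per M against at most 0.620 in the other libraries. It counts as exonic through a transcript annotated as a retained intron. Copies in Gm37928 (Lx5b) and Gm37899 (Lx8) had 6.75 and 4.31 against at most 0.282 and 0.294. They count as exonic through transcripts not annotated as protein-coding. The exonic level is therefore not a level of spliced messenger RNA alone. Intronic copies in Fgf2 (Lx2B2), Mprip (Lx5c) and Map6 (Lx2) had 6.94, 5.16 and 5.06 against at most 0.527, 0.705 and 0.498. At the gene level Krit1 itself had 283 reads per M there, against a highest value of 56.5 elsewhere.

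Intronic Lx reads went with Malat1, a noncoding RNA kept in the nucleus. Untransduced replicate 4 had 42159 Malat1 reads per M, against 1904 to 8253 in the others. The 5 libraries with the most Malat1 were the 5 with the most intronic Lx reads, and the first 10 of each order shared 7 libraries. With exonic Lx reads 1 of 5 and 2 of 10 were shared. With the Gm4332 pair left out of the exonic reads, 4 of 5 and 5 of 10 were. Copies in transcripts annotated as retained introns count among these exonic reads. Summed over 5 nuclear-retained RNAs, Malat1 among them, the level was 47390 in untransduced replicate 4 and 2070 to 8918 in the others. Malat1 made up most of that sum, so it is not a separate observation. Whether nuclear RNA content set the intronic Lx level was not tested.

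**Figure D5:**
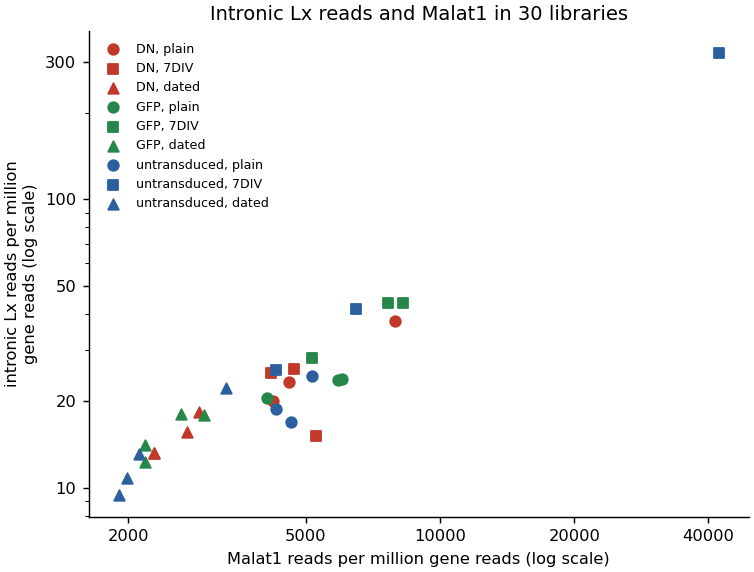
Intronic Lx reads (y axis) against Malat1 reads (x axis), both per M gene reads on log scales, in 30 libraries coloured by condition with markers for the culture set. Untransduced replicate 4 stands apart at 42159 and 322, and the dated libraries have the lowest Malat1 values.

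Genes linked to the control of LINE RNA or L1 copying were read from a list in the gene table. Of 29 listed symbols, 28 were in the table and 27 were tested, and Trex1, a DNA exonuclease gene, was listed at 0 in every library. In DN against GFP, 1 of the 27 rose and 0 fell, beside 10.9% of all genes called in either direction. In DN against untransduced 1 rose and 2 fell, beside 13.1%, and in GFP against untransduced 0 were called, beside 0%. Medians over the 27 were -0.01, -0.04 and -0.04 on the log2 scale, beside -0.02, -0.04 and -0.02 over all genes.

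The gene that rose was Zc3hav1, which encodes the zinc-finger antiviral protein that binds viral and L1 RNA. It ran from 85.8 to 113 reads per M in DN (median 102) and from 81.3 to 99.9 in GFP (median 89.6), so the groups overlapped. It was higher in DN in 9 of 10 trios, with a log2 difference of 0.16 (SE 0.05, edgeR adjusted p = 0.0307). With TMM scaling it was 0.17 with an adjusted p of 0.0651, which no longer passed. Against untransduced libraries the difference was 0.25 (adjusted p = 0.000797). Ptbp1 and Hnrnpl, genes of splicing repressors that bind RNA of repeats, fell by 0.18 and 0.14 against untransduced libraries (edgeR adjusted p = 0.0177 and 0.0357), and with TMM scaling neither passed (0.107 and 0.119). Without untransduced replicate 4 both passed (0.0170 and 0.0380), and with TMM scaling as well Ptbp1 passed (0.0356) and Hnrnpl did not (0.0703). Uhrf1 was also called lower against untransduced libraries without that replicate. The calls there were 1 higher and 3 lower of 27, beside 16.1% of all genes. With TMM scaling as well they were 1 higher and 1 lower, beside 15.8%. Without untransduced replicate 4, Uhrf1 and Dnmt1, which maintain DNA methylation, and Ptbp1 fell in DN against GFP by 0.15, 0.15 and 0.14 (edgeR adjusted p = 0.01396, 0.01995 and 0.0373), which brought the calls to 4 of 27 beside 17.8% of all genes. With TMM scaling as well, Uhrf1 passed (edgeR adjusted p = 0.0461), and Dnmt1 and Ptbp1 did not (0.0589 and 0.0908). Adar, an RNA-editing enzyme gene, and Rnaseh2a, a ribonuclease H2 subunit gene, were then called higher (0.01945 and 0.0280). That setting had 3 higher and 1 lower of 27, beside 17.3% of all genes.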

How the data were processed

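RNA from 30 libraries was extracted with an RNeasy Micro kit and made into TruSeq libraries, per the labels' protocols. The authors deposited raw read counts for Ensembl genes and for short intervals of the genome. Tools named in the submitters' processing notes are HTSeq, STAR and bcl2fastq 2.17, on the mouse assembly GRCm38 (mm10). The settings, strandedness, multi-mapping rules, annotation release and choice of intervals were not given in the sources used here. Positions are those of the start and end columns of the repeat table.

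Interval context, host genes, strands and exonic sequences came from GENCODE M21 on GRCm38 (bedtools 2.31.1, pandas 2.3.3). Symbols were found for 48435 of 48795 gene identifiers. Context was exon, then intron, then between genes. Overlap with an exon of any annotated transcript, retained introns included, counted as exon. Levels are reads per M (1000000) gene-table reads, and depth ran from 10.7 to 39.1 M gene counts.

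Counts were fitted in R 4.3.3 with edgeR 4.0.16 (filterByExpr by condition, robust quasi-likelihood F test, two-sided) over all LINE names, all intervals and all genes, with gene-table totals as library sizes and replicate number as block. P-values were Benjamini-Hochberg adjusted over all features of a fit (threshold 0.05). The SE is the log2 fold change over the square root of F. Alternatives were TMM and median-ratio factors, no block, no filter beyond 10 counts, DESeq2 1.42.0, leaving out each replicate number, untransduced replicate 4, exonic intervals or the most-read interval of each name, and pairs of these that were chosen after seeing the data. The scripts were tested on simulated data.

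Using the number as block rests on the series design, which says that cultures were divided between conditions; the labels do not name the mouse, so pairing by number is an assumption. After condition and set were taken off, 8 of 30 pairs with the same number had a correlation over genes above 0.1 (median r 0.0613). No libraries agreed within sampling noise. Described singly are the 6 names with the most reads per M, the 10 most-read intervals, any names or intervals past the threshold, hosts of those intervals, and called members of the gene list. The members and lists were chosen with earlier results of these data known. Sequences of intervals outside exons were not used here.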

Additional observations from a re-analysis of the deposited data

Results flagged for a closer look

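In groups of 10 libraries, a value was picked out where the gap between the highest or lowest library and its neighbour was above 0.466 of the range, and 13 of 60 groups of Lx values met this. Chance alone picks out about 1 in 20 groups. In 11 of the 13 the library was untransduced replicate 4. It stood above the other 9 untransduced libraries for all Lx intervals (436 reads per M gene reads), for the names Lx2 (25.5), Lx (45.2), Lx8 (62.3), Lx9 (59.6) and Lx7 (40.6), for intronic (322), exonic (57.9) and intergenic Lx reads (56.1), and for the Lx interval at chr17:66256764-66256787 (3). It stood below them for the Lx2 interval at chrX:163974460-163974483, with 0 reads against 1.14 to 1.71 per M, where 3 reads would have been 0.281 per M. These groups share that library and overlap in their intervals, so they are not separate observations.

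In DN libraries, replicate 1 stood above the others at the same chromosome 17 interval (2.07 against at most 1.4 reads per M), and replicate 3 stood above them in intronic Lx reads (37.9 against at most 25.7). DN replicate 3 was also among the 5 libraries with the most Malat1. The causes were not tested.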

How the results depend on the processing

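The counts of 0 called Lx names and 0 called Lx intervals held in all 3 comparisons under every alternative that was run, 21 per comparison for names and 17 for intervals, leave-one-out included (0 to 0). So did the 0 names whose DN effect differed between culture sets, under TMM and without untransduced replicate 4. The nearest to a call in DN against GFP was an interval at an adjusted p of 0.0525 with DESeq2, and leaving out 1 replicate number gave 0.0760 at the lowest. Without the replicate block (pairing not used), 0 names and 0 intervals were called, and the median of the Lx names went from -0.28 to -0.52 in DN against untransduced and from -0.20 to -0.45 in GFP against untransduced. Without the 10 most-read intervals, the median Lx level was 28.8 reads per M in DN, 33.5 in GFP and 30.9 in untransduced libraries, in place of 72.8, 74.0 and 76.9. The drop follows from removing those reads. The order of DN and GFP stayed the same, while the untransduced median went from the highest to the middle. Without replicate 4 it was 29.4, also in the middle. In the list of LINE control genes, 1 of 27 was called in DN against GFP, beside 10.9% of all genes. Without untransduced replicate 4 the count was 4 (1 higher, 3 lower), beside 17.8% of all genes. With TMM it was 0, beside 10.5%, and with both 4 (3 higher, 1 lower), beside 17.3%. The share over all genes thus moved between settings too. Of the 3420 intervals, 24 passed the filter on low counts. With no filter beyond 10 counts 668 were tested with 0 called in each comparison. Of all intervals tested that way, 0.404% were called in DN against GFP, 0.485% in DN against untransduced and 0% in GFP against untransduced.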
